A study of Homo sapiens with 6 samples.

Results

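The respiratory chain genes described here encode the subunits of the mitochondrial complexes I to V and some of the proteins that assemble them. Membership was set by gene symbol and a minimum count, and not by the size of a change. The group itself was chosen with earlier results of these data known. Symbols starting with NDUF, UQCR, COX plus a digit, ATP5, MT-ND, MT-CO, MT-CYB or MT-ATP were taken, together with SDHA, SDHB, SDHC and SDHD. Of the 36884 genes in the table, 275 matched. Pseudogene-like symbols ending in P plus digits (153) and antisense or read-through names with a hyphen (6) were left out, and 14 more had a mean below 50 counts over the 6 libraries. The remaining 102 genes were 89 nuclear genes and the 13 protein-coding genes of the mitochondrial DNA, and all 102 were abundant enough to be tested. MT-ATP6 and MT-ATP8 also end in P plus a digit and were kept, since they are functional genes that the rule names. The lowest mean among the chosen genes was 103 counts (ATP5S), and the highest below the minimum was 39.5 counts (COX20). The table uses older symbols for ATP synthase, such as ATP5C1 for the gene now called ATP5F1C.

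The libraries came from RPE1 cells, an immortalised line of human retinal pigment epithelium that is not transformed. In all of them LATS1 and LATS2, the kinases of the Hippo pathway that restrain YAP and TAZ, had been inactivated with CRISPR-Cas9. The labels do not say whether the null cells are 1 clone. One group was transfected with siRNA against MK5 (siMK5), the protein kinase encoded by MAPKAPK5, and the other with control siRNA (siCon), both with a lipid reagent and both sampled at 48 h, with 3 libraries each. Both groups therefore carry the LATS1 and LATS2 inactivation, and no library from cells with LATS1 and LATS2 was part of the comparison. The submitters call the libraries biological replicates. The p-values measure the spread between these libraries, whose separate origin from cultures is not described further.

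The 6 libraries held between 27188074 and 28236773 counts. Levels are given as CPM, the counts relative to library totals that edgeR's TMM method scaled, in the order of replicates 1, 2 and 3. Fold changes are siMK5 over siCon on the log2 scale with their standard error (n = 3 per group), from edgeR's quasi-likelihood test on all 13431 genes that passed a filter on low counts. A gene is said to have risen or fallen where its p, adjusted by Benjamini-Hochberg over those 13431 genes, was below 0.05. MAPKAPK5 (ENSG00000089022), the target of the siRNA, stood at 17.4, 14.1 and 16.2 CPM in siMK5, against 35.6, 29.05 and 31.3 CPM in siCon. It fell in siMK5, with a log2 fold change of −1.01 ± 0.14 (adjusted p = 0.00169). Both replicate 1 libraries differed from the rest of their groups. The common coefficient of biological variation was 4.63% without them and 21.2% with all 6 libraries. The line's label was only partly borne out by markers of mature pigment epithelium. OTX2, a transcription factor of that tissue, was at 35.9, 34.1 and 34.5 CPM in siMK5 and 34.7, 32.96 and 29.6 CPM in siCon, while the visual cycle genes RPE65 and RLBP1 had at most 2 counts in any library and TTR had none. The epithelial keratin genes KRT8 and KRT18 were present and fell in siMK5 (−0.83 ± 0.18 and −0.74 ± 0.13), EPCAM had no count, and the mesenchymal gene VIM stood at 3787, 3423 and 3306 CPM in siMK5 and 4418, 3471 and 3544 CPM in siCon. Summed over 5 blood cell markers, no library reached 0.5 CPM.

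The respiratory chain passes electrons from NADH and succinate to oxygen through complexes I, II, III and IV in the inner mitochondrial membrane, and complex V, the ATP synthase, uses the proton gradient that complexes I, III and IV build. Complex II is built from nuclear genes alone, whereas each of the others combines nuclear subunits with subunits made inside the mitochondrion. The mitochondrial mRNAs are cut from long transcripts of the heavy and the light strand of the mitochondrial DNA, so that their supply depends on nuclear genes for transcription and RNA processing. Many nuclear respiratory genes carry binding motifs for the transcription factors NRF1, GABP (an ETS factor) and YY1 close to their start sites.

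As examples only, promoters of 4 genes that fell and 1 that rose are shown to place these motifs beside the results that follow. They are RefSeq sequences on GRCh38.p14, from 250 bases before the annotated start to 50 bases after it, read 5′ to 3′ on the gene's strand. Capitals mark matches on either strand to the NRF1 motif (GCGCA and GCGC with 1 base between them), the ETS motif CCGGAAG or the YY1 motif AANATGGCG. ATP5C1 (chr10:7787927-7788226, plus strand) held 1 NRF1 match, COX18 (chr4:73069667-73069966, minus strand) held 2 NRF1 matches, COX4I1 (chr16:85799445-85799744, plus strand) held 1 ETS match, NDUFS6 (chr5:1801157-1801456, plus strand) held 1 YY1 match, and COX7A2L (chr2:42361168-42361467, minus strand), which rose, held none of the 3 motifs.
ATP5C1: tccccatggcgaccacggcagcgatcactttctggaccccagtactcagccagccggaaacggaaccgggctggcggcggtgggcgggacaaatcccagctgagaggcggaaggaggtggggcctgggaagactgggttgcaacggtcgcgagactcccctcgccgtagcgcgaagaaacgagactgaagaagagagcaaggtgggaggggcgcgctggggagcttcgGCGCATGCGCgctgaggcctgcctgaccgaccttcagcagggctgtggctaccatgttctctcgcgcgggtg
COX18: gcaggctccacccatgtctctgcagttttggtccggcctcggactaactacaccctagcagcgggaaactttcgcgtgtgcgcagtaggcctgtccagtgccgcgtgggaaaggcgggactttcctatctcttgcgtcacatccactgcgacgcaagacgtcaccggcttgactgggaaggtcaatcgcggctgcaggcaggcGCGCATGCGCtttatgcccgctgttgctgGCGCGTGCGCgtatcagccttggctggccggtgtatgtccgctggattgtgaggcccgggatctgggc
COX4I1: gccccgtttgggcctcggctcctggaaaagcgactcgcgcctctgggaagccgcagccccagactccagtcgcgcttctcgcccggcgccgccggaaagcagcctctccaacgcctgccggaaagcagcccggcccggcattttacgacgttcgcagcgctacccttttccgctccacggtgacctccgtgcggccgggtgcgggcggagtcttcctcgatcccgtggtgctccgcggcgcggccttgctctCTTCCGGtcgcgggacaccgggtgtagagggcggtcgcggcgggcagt
NDUFS6: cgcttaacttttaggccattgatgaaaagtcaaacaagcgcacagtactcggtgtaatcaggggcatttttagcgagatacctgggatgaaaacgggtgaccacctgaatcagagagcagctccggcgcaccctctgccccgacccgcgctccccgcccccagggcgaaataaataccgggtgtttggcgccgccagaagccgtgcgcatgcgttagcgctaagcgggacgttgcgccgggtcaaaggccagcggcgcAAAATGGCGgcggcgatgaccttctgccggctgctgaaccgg
COX7A2L: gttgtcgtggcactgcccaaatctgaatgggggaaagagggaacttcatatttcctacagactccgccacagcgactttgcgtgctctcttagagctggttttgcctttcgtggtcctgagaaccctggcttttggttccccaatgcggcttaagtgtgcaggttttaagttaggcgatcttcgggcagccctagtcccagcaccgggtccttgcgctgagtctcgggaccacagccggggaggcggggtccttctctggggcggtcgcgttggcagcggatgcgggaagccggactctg

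A RefSeq promoter was matched for 73 of the 89 nuclear genes. The NRF1 motif was in 17 of them (23.3%), against 6.28% of all 27305 promoters in the table. The ETS motif was in 21 (28.8%, against 10.7% of all) and the YY1 motif in 15 (20.5%, against 3.37% of all). The cyclic AMP response element TGACGTCA was in 5 (6.85%, against 1.98% of all) and the estrogen-related receptor motif TCAAGGTCA in 1. The motifs were spread over genes that changed and genes that did not. Of 19 promoters of genes that fell, 4 held the NRF1 motif, 5 the ETS motif and 2 the YY1 motif. Of 49 promoters of genes that did not pass, 13 held the NRF1 motif, 16 the ETS motif and 11 the YY1 motif. Of 5 promoters of genes that rose, 2 held the YY1 motif and none held the NRF1 or ETS motif. The sequences shown above therefore do not represent the genes that fell or rose. Among genes not shown, ATP5A1, ATP5F1, NDUFAF1 and NDUFAF8 fell and held none of the NRF1, ETS and YY1 motifs. NDUFA6 and NDUFS7 rose and held the YY1 motif. A match describes letters in a window of 300 bases and not a bound site.

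Most respiratory chain genes changed little, and those that changed mostly fell. Of the 102 genes, 7 rose and 21 fell, and 74 did not pass. This is 27.5% of them, where 46.2% of all 13431 genes tested passed, 22.5% rising and 23.7% falling. Among genes with a mean of at least 50 counts, as the members have, 47.7% passed. The median log2 fold change was −0.06 over the 102 genes and 0.00 over all genes tested, and 86 of the 102 lay within 0.5 of 0. A log2 change of at least 1 in either direction was found in 6 members, all of them lower in siMK5, against 21.5% of the genes with a mean of at least 50 counts. The libraries of the groups did not overlap in 49 members (48.0%), 16 higher and 33 lower in siMK5, against 60.4% of all genes tested.

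Nuclear and mitochondrial genes were also counted apart. The 89 nuclear genes gave 6 rises and 21 falls (30.3% passing) with a median of −0.07. The 13 mitochondrial genes gave 1 rise and no fall (7.69% passing) with a median of 0.12. Of all genes tested, 46.2% passed. The difference between the genomes was not tested. More genes passed without replicate 1. With replicate 1 left out of both groups, 14 of the 89 nuclear genes rose and 38 fell, and 4 of the 13 mitochondrial genes rose and 3 fell. In that fit 37.9% of 13690 genes rose and 37.8% fell. Of the 28 calls, 12 falls and 1 rise passed whichever single library was left out, and 15 were lost without at least 1 library. In bulk RNA, fewer cells of a kind and less RNA per cell cannot be told apart.

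**Figure D1:**
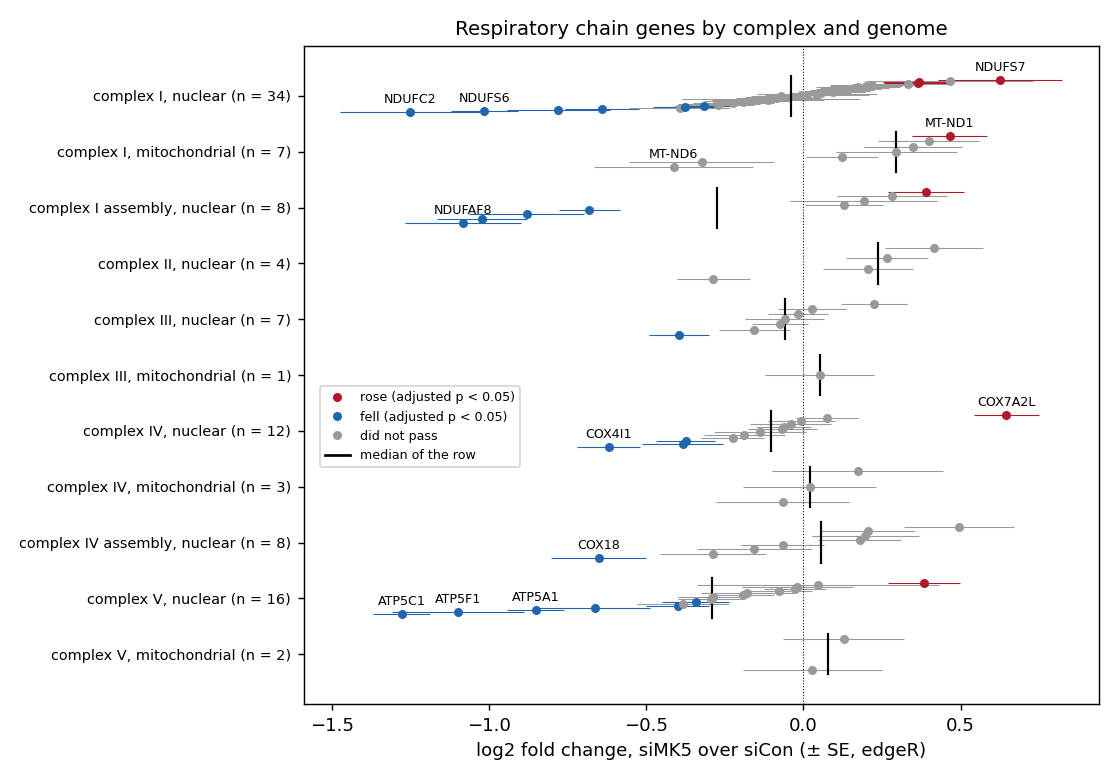
Log2 fold change of the 102 respiratory chain genes, siMK5 over siCon (x axis; points are genes, horizontal lines the SE of edgeR's fit on 3 libraries per group), in rows by complex and genome with each row's median as a black bar. The 16 nuclear complex V genes have a median of −0.29 with ATP5C1 at the far left, and most of the 34 nuclear complex I genes lie near 0.

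Complex V, the ATP synthase, held the largest fall. Its catalytic head is formed by the alpha and beta subunits around the gamma shaft, with the delta and epsilon subunits at the foot of the shaft. The head sits on a ring of c subunits in the membrane, and a peripheral stalk holds it in place. Of the 16 nuclear genes, 6 fell, 1 rose and 9 did not pass. The share that passed, 43.8%, was near the 46.2% of all genes tested. Of the 16 fold changes 14 were negative, and the median was −0.29. Without replicate 1 of both groups, 11 fell and 1 rose, in a fit where 37.8% of all genes tested fell and 37.9% rose.

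ATP5C1 (ENSG00000165629), the gamma subunit that turns inside the head, stood at 96.4, 95.1 and 90.6 CPM in siMK5, against 222, 234 and 228 CPM in siCon. The groups were far apart, with little spread inside either, and the log2 fold change was −1.28 ± 0.09 (adjusted p = 0.000231). ATP5A1 (ENSG00000152234), the alpha subunit, stood at 368, 393 and 376 CPM in siMK5, against 682, 684 and 685 CPM in siCon. It fell, with a log2 fold change of −0.85 ± 0.09 (adjusted p = 0.000718), again with no overlap between the groups. ATP5B, the beta subunit that forms the catalytic sites with alpha, did not share this change. It stood at 979, 928 and 978 CPM in siMK5 and 1039.6, 937 and 962 CPM in siCon, with overlapping groups and a log2 fold change of −0.03 ± 0.10 (adjusted p = 0.844). The small subunits of the head differed in direction as well. ATP5D, the delta subunit, rose by 0.38 ± 0.11 (adjusted p = 0.0307), at 102, 86.7 and 89.3 CPM in siMK5 and 66.5, 69.1 and 77.5 CPM in siCon, and did not pass with replicate number as a block (adjusted p = 0.0556), nor without siCon replicate 2 or any 1 siMK5 replicate (adjusted p from 0.0666 to 0.101). ATP5E, the epsilon subunit, fell, with a log2 fold change of −0.40 ± 0.10 (adjusted p = 0.0157), a call lost without siMK5 replicate 2 or 3 (adjusted p = 0.0910 and 0.0723).

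In the peripheral stalk, ATP5F1 (ENSG00000116459), the b subunit that anchors it in the membrane, stood at 76.5, 89.1 and 90.8 CPM in siMK5, against 127, 205 and 217 CPM in siCon. It fell, with a log2 fold change of −1.10 ± 0.21 (adjusted p = 0.00577), and siCon replicate 1 lay well below the other siCon libraries. The other stalk genes ATP5O, ATP5H and ATP5J had negative log2 fold changes of −0.38, −0.19 and −0.08 that did not pass, and ATP5O passed with the block (adjusted p = 0.0308).

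The c subunit is made from ATP5G1, ATP5G2 and ATP5G3, which encode the same mature protein behind different import sequences. ATP5G1 stood at 36.4, 48.3 and 56.1 CPM in siMK5, against 81.3, 66.2 and 75.5 CPM in siCon, and fell, with a log2 fold change of −0.66 ± 0.18 (adjusted p = 0.0201). ATP5G2 stood at 211, 207 and 209 CPM in siMK5 and 283, 245 and 241 CPM in siCon (−0.29 ± 0.10, adjusted p = 0.0535). ATP5G3 stood at 192, 172 and 182 CPM in siMK5 and 248, 209 and 209 CPM in siCon (−0.29 ± 0.11, adjusted p = 0.0732). All 3 genes were lower in every siMK5 library than in every siCon library, and only ATP5G1, the least counted of them, passed with all 6 libraries. Its call was lost without siCon replicate 3 or siMK5 replicate 2 (adjusted p = 0.0507 and 0.0672), and its log2 fold change was −0.44 without replicate 1 of both groups. Without siCon replicate 1 all 3 passed (adjusted p = 0.0156 for ATP5G1, 0.0205 for ATP5G2 and 0.0434 for ATP5G3), and ATP5G2 and ATP5G3 did not pass without any other single library. In the fit without siCon replicate 1, 8874 of all 13774 genes tested passed. Among the small membrane subunits, ATP5J2 fell, with a log2 fold change of −0.34 ± 0.11 (adjusted p = 0.0342), a call that was lost with the block (adjusted p = 0.0540) and without any library other than siCon replicate 1 (adjusted p from 0.0726 to 0.137), while ATP5L (−0.18) and ATP5I (−0.02) did not pass. ATP5S, related to a stalk coupling factor, was the least counted member and did not pass (0.05 ± 0.39). ATP synthase genes with other names fall outside the symbol rule and did not share the negative direction. The subunits USMG5 and C14orf2 gave 0.22 ± 0.12 and −0.000346 ± 0.096, and the inhibitor ATPIF1 gave 0.14 ± 0.15. None of them passed, and USMG5 was higher in every siMK5 library.

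**Figure D2:**
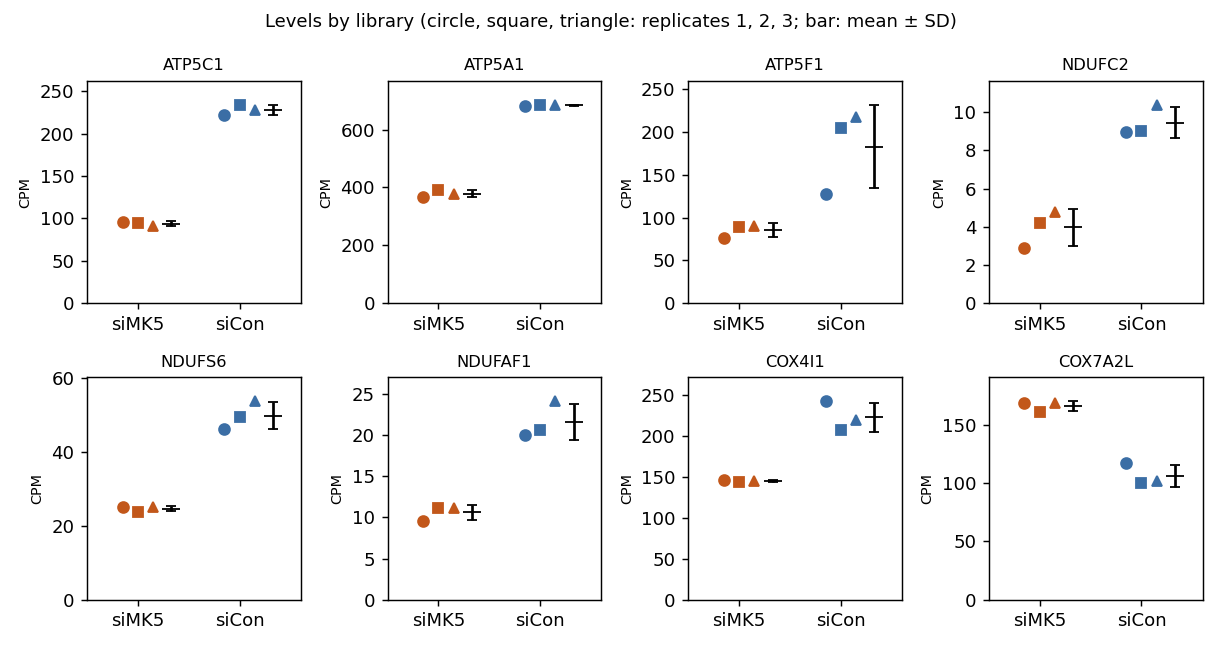
Levels in CPM (y axis, starting at 0) of 8 respiratory chain genes in the 3 siMK5 libraries (left) and the 3 siCon libraries (right) of each panel, with the mean ± SD as a bar. The groups do not overlap in any panel. ATP5C1 lies between 90.6 and 96.4 CPM in siMK5 and at 222 CPM or more in siCon, and COX7A2L is the 1 gene of the 8 that is higher in siMK5.

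Complex I, the NADH dehydrogenase, has a matrix arm that takes up NADH and a membrane arm that pumps protons. Its core subunits carry the redox groups and the pumps, and the supernumerary subunits surround them. Among the 34 nuclear subunit genes, 3 rose, 6 fell and 25 did not pass, and the median was −0.04. The share that passed was 26.5%, against 46.2% of all genes tested. Every fall was in a supernumerary subunit, of which 28 were measured. Of the 6 nuclear core genes, NDUFS7 rose and none fell.

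NDUFC2 (ENSG00000151366), a supernumerary subunit of the membrane arm, stood at 2.92, 4.21 and 4.78 CPM in siMK5, against 8.96, 9.03 and 10.4 CPM in siCon. It fell, with a log2 fold change of −1.25 ± 0.22 (adjusted p = 0.00432). The gene overlaps the read-through gene NDUFC2-KCTD14, which had no count in any library, and reads on overlapping genes may not have been counted for either. NDUFS6 (ENSG00000145494), a zinc-binding subunit of the matrix arm, stood at 25.1, 23.8 and 25.2 CPM in siMK5, against 46.3, 49.6 and 53.8 CPM in siCon. Each group was tight and the fall was −1.01 ± 0.11 (adjusted p = 0.000701). NDUFS4 (ENSG00000164258), a matrix arm subunit whose loss causes Leigh syndrome, stood at 33.2, 26.5 and 23.1 CPM in siMK5, against 41.8, 51.7 and 48.5 CPM in siCon (−0.78 ± 0.16, adjusted p = 0.00835). NDUFA3, NDUFB1 and NDUFA12 made up the other falls, at −0.64 ± 0.12, −0.38 ± 0.10 and −0.31 ± 0.09 (adjusted p = 0.00499, 0.0212 and 0.0307). The NDUFA12 call was lost with the block (adjusted p = 0.0533) and without any library other than siCon replicate 1 (adjusted p from 0.0525 to 0.139). NDUFB1 was lost without siCon or siMK5 replicate 2 or 3 (adjusted p from 0.0554 to 0.106).

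Rises in complex I were found in 3 genes. NDUFS7 (ENSG00000115286), which holds the last iron-sulfur cluster before ubiquinone, stood at 6.82, 5.46 and 5.39 CPM in siMK5, against 4.18, 3.28 and 3.99 CPM in siCon, and rose by 0.63 ± 0.20 (adjusted p = 0.0373). NDUFA5 and NDUFA6, supernumerary subunits of the matrix arm, rose by 0.37 ± 0.11 and 0.36 ± 0.11 (adjusted p = 0.0341 and 0.0289). NDUFA5 stood at 68.3, 68.7 and 71.7 CPM in siMK5 and 47.4, 56.99 and 57.5 CPM in siCon. NDUFA6 stood at 63.998, 59.05 and 65.98 CPM in siMK5 and 46.4, 47.3 and 53.2 CPM in siCon. None of these 3 rises passed without siCon replicate 2 or without any 1 of the siMK5 replicates, where their log2 fold changes lay between 0.32 and 0.69 (adjusted p from 0.0649 to 0.132). NDUFS7 and NDUFA5 were also lost without siCon replicate 3 (adjusted p = 0.0945 and 0.0580).

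Assembly factors help to join the modules of complex I and leave before it is complete. Of 8 measured, 4 fell, 1 rose and 3 did not pass, with a median of −0.28. This is 62.5% passing, against 46.2% of all genes tested, a difference that was not tested. NDUFAF8 (ENSG00000224877), a partner of the methyltransferase-like factor NDUFAF5, stood at 19.6, 21.1 and 23.97 CPM in siMK5, against 36.01, 44.6 and 56.3 CPM in siCon (−1.08 ± 0.18, adjusted p = 0.00364). NDUFAF1 (ENSG00000137806), which helps to build the membrane arm, stood at 9.56, 11.2 and 11.1 CPM in siMK5, against 20.04, 20.6 and 24.1 CPM in siCon (−1.02 ± 0.14, adjusted p = 0.00175). Both genes were lower in every siMK5 library. NDUFAF4 and NDUFAF3, which act together on the part of the matrix arm next to the membrane, also fell. NDUFAF4 stood at 8.54, 7.30 and 8.75 CPM in siMK5 and 18.2, 12.7 and 14.3 CPM in siCon (−0.88 ± 0.18, adjusted p = 0.00791), and NDUFAF3 fell, with a log2 fold change of −0.68 ± 0.10 (adjusted p = 0.00198). NDUFAF2, a late assembly chaperone, rose by 0.39 ± 0.12 (adjusted p = 0.0353), and did not pass with the block (adjusted p = 0.0621) or without any library other than siCon replicate 1 (adjusted p from 0.0561 to 0.103). NDUFAF5, NDUFAF6 and NDUFAF7 did not pass, at 0.28, 0.19 and 0.13.

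Complex II, succinate dehydrogenase, is also an enzyme of the tricarboxylic acid cycle. None of its 4 genes passed, against 46.2% of all genes tested, and their median was 0.24. SDHA, the flavoprotein that oxidises succinate, stood at 263, 186 and 186 CPM in siMK5 and 161, 153 and 163 CPM in siCon (0.41 ± 0.16, adjusted p = 0.0663). SDHB, the iron-sulfur subunit, stood at 98.7, 86.7 and 91.3 CPM in siMK5 and 64.98, 81.9 and 83.3 CPM in siCon (0.27 ± 0.13, adjusted p = 0.133). The groups did not overlap in either gene, with siMK5 above siCon. They did not overlap in 60.4% of all genes tested. The membrane anchors lay on either side of 0. SDHC stood at 88.96, 88.5 and 91.1 CPM in siMK5 and 94.6, 118 and 115 CPM in siCon (−0.29 ± 0.12, adjusted p = 0.0804), with no overlap. SDHD stood at 49.2, 46.3 and 46.96 CPM in siMK5 and 49.5, 36.2 and 37.8 CPM in siCon (0.21 ± 0.14, adjusted p = 0.272), with overlap. Without siCon replicate 1, SDHA and SDHD passed upward (adjusted p = 0.0391 and 0.00387) and SDHC downward (adjusted p = 0.00167). In that fit 8874 of all 13774 genes tested passed. SDHA was at 0.23 without siMK5 replicate 1 (adjusted p = 0.116), and SDHD at 0.099 without siCon replicate 2 and 0.12 without siCon replicate 3 (adjusted p = 0.662 and 0.602). SDHB was at 0.16 without siCon replicate 1 (adjusted p = 0.0994).

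Complex III passes electrons from ubiquinol to cytochrome c. Of its 7 nuclear genes, 1 fell and none rose (14.3% passing, against 46.2% of all genes tested). UQCRQ (ENSG00000164405), a small subunit that contacts cytochrome b, stood at 47.5, 45.1 and 44.001 CPM in siMK5, against 58.5, 58.8 and 62.4 CPM in siCon (−0.40 ± 0.10, adjusted p = 0.0143). The call was lost without siMK5 replicate 2 or 3 (adjusted p = 0.0755 and 0.0771). The 2 large core proteins UQCRC1 and UQCRC2 gave −0.02 ± 0.10 and 0.03 ± 0.11, and UQCRFS1, the Rieske iron-sulfur protein, gave 0.22 ± 0.11. None of them passed.

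Complex IV, cytochrome c oxidase, reduces oxygen. Its 12 nuclear genes gave 3 falls and 1 rise (33.3% passing, against 46.2% of all genes tested). Their median was −0.10, and 10 of the 12 fold changes were negative. COX4I1 (ENSG00000131143), the common isoform of the largest nuclear subunit, stood at 147, 144 and 145 CPM in siMK5, against 243, 207 and 219 CPM in siCon. The siMK5 libraries were almost equal and all below siCon, and the fall was −0.62 ± 0.10 (adjusted p = 0.00302). COX6B1, on the side facing cytochrome c, fell, with a log2 fold change of −0.37 ± 0.09 (adjusted p = 0.0156), at 87.97, 93.4 and 96.99 CPM in siMK5 and 119, 119 and 124 CPM in siCon. COX8A, the smallest subunit, fell, with a log2 fold change of −0.38 ± 0.13 (adjusted p = 0.0458), at 30.5, 34.4 and 37.6 CPM in siMK5 and 40.8, 43.6 and 49.2 CPM in siCon. COX6B1 was lost without siMK5 replicate 2 or 3 (adjusted p = 0.0777 and 0.0566). COX8A passed narrowly and was lost when any library other than siCon replicate 1 was left out (adjusted p from 0.0715 to 0.137). COX7A2L (ENSG00000115944), a relative of COX7A2 that binds complexes III and IV together, was the largest rise among all 102 genes. It stood at 168, 161 and 169 CPM in siMK5, against 117, 99.9 and 102 CPM in siCon (0.65 ± 0.10, adjusted p = 0.00292).

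Several complex IV subunits exist as tissue isoforms, and the muscle, lung and testis isoforms were at or near 0 in the table. COX6A1 (−0.04 ± 0.13), COX7A2 (−0.06 ± 0.09) and NDUFA4 (0.08 ± 0.10), the last a subunit once assigned to complex I, did not pass. COX7A2 stood at 103, 99.4 and 103 CPM in siMK5 and 105, 109 and 104 CPM in siCon. COX4I2 had a mean of 0.333 counts, COX6B2 of 4.67 and COX7A1 of 1.5 counts over the 6 libraries, and COX6A2 had none. Among the 8 assembly factors of complex IV, 1 fell and none rose (12.5% passing, against 46.2% of all genes tested). COX18 (ENSG00000163626), which inserts part of the mitochondrially made subunit MT-CO2 into the membrane, stood at 11.2, 11.3 and 12.1 CPM in siMK5, against 21.2, 16.3 and 16.9 CPM in siCon (−0.65 ± 0.15, adjusted p = 0.0116), and was lost without siMK5 replicate 2 (adjusted p = 0.0578). COX19, which acts in copper delivery, was higher in every siMK5 library (0.50 ± 0.17) and did not pass (adjusted p = 0.0536).

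The mitochondrial genes were counted far above most nuclear ones. The 13 mRNAs took 1.35%, 1.71% and 1.99% of all counts in siMK5, and 1.01%, 1.77% and 1.57% in siCon. The groups overlapped, with siCon replicate 1 lowest, and the mean difference of 0.234 percentage points was 0.0137 without that library. The 89 nuclear genes together took 0.744, 0.732 and 0.755% in siMK5 and 0.744, 0.783 and 0.806% in siCon, which also overlapped.

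Per kilobase of transcript, MT-CO1 and MT-CO2, the catalytic core of complex IV, were the highest of the 13. MT-CO1 had a level of 3171 ± 672 CPM per kilobase in siMK5 and 2814 ± 888 in siCon (SD, n = 3 each). MT-CO2 had 2803 ± 364 CPM per kilobase in siMK5 and 2934 ± 757 in siCon, and the order of these 2 genes was not the same in both groups, within their spread. MT-ND4, MT-CO3 and MT-ATP6 came next, in that order in siMK5, whereas in siCon MT-CO3 (1893 ± 475) lay above MT-ND4 (1728 ± 336 CPM per kilobase), within their spread. MT-ATP8 was lowest, with 333 ± 46.7 CPM per kilobase in siMK5 and 327 ± 91.9 in siCon. MT-ND1 stood at 547 ± 66.7 CPM per kilobase in siMK5 and 396 ± 9.59 in siCon, and MT-ND6 at 409 ± 72.6 CPM per kilobase in siMK5 and 545 ± 168 in siCon.

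MT-ND1 (ENSG00000198888), a membrane core subunit of complex I, was the 1 mitochondrial gene that rose. It stood at 520.1, 461 and 588 CPM in siMK5, against 371, 389 and 378 CPM in siCon, with no overlap (0.46 ± 0.12, adjusted p = 0.0170). The replicate pairs differed by 0.49, 0.24 and 0.64 on CPM with 0.5 added. As the groups do not overlap, any pairing gives positive differences. The call was lost without siCon replicate 2 or 3 or siMK5 replicate 3 (adjusted p = 0.0544, 0.0611 and 0.0728). MT-ND2, its neighbour and also a core subunit of complex I, stood at 723, 784 and 976 CPM in siMK5 and 529.7, 685 and 669.6 CPM in siCon, without overlap. Its log2 fold change of 0.40 ± 0.16 did not pass (adjusted p = 0.0800) and passed with replicate number as a block (adjusted p = 0.0378). Reads of MT-ND2, MT-CO1 and MT-ATP6 can be shared with nuclear copies of the mitochondrial DNA. The copies MTND2P28, MTCO1P12 and MTATP6P1 held mean counts of 415, 571 and 3387 and did not pass.

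The remaining complex I genes of the mitochondrial DNA overlapped between the groups. MT-ND4 stood at 2399, 2935 and 3437 CPM in siMK5 and 1895, 2816 and 2433 CPM in siCon (0.30 ± 0.19, adjusted p = 0.245). MT-ND4L, which shares bases with MT-ND4, gave 0.35 ± 0.16 (adjusted p = 0.110), and MT-ND3 gave 0.12 ± 0.11 (adjusted p = 0.404). MT-ND5 and MT-ND6 lay on the other side of 0. MT-ND5 stood at 837, 942 and 1108 CPM in siMK5 and 837, 1555 and 1222 CPM in siCon (−0.32 ± 0.23, adjusted p = 0.287). MT-ND6, the single mRNA made from the light strand, stood at 178, 212 and 254 CPM in siMK5 and 188, 359 and 311 CPM in siCon (−0.41 ± 0.25, adjusted p = 0.219). Without replicate 1 of both groups MT-ND5 and MT-ND6 passed downward (−0.43, adjusted p = 0.000133, and −0.52, adjusted p = 5.18e-06), and MT-ND1, MT-ND2, MT-ND4 and MT-ND4L passed upward. MT-CO2 passed downward there as well (−0.18, adjusted p = 0.0186). In that fit 4 of the 13 mitochondrial genes rose and 3 fell, where 37.9% of all 13690 genes tested rose and 37.8% fell. MT-ND5 and MT-ND6 also passed without siCon replicate 1 alone (adjusted p = 0.0126 and 0.0056), and MT-ND4L without siCon replicate 2 (adjusted p = 0.0393). Over all genes, 8874 of 13774 passed in the former fit and 5039 of 13660 in the latter. Without siCon replicate 2, MT-ND5 was at −0.11 (adjusted p = 0.693) and MT-ND6 at −0.23 (adjusted p = 0.498). MT-ND5 and MT-ND6 lie end to end on opposite strands. Since the strand setting of the counting is not given, antisense reads at these genes cannot be told apart from sense reads.

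The mitochondrial genes of the other complexes did not pass and had fold changes near 0. MT-CYB, cytochrome b of complex III, stood at 642, 726 and 852 CPM in siMK5 and 569, 824 and 749 CPM in siCon (0.05 ± 0.17). In complex IV, MT-CO1 gave 0.17 ± 0.27, MT-CO2 −0.07 ± 0.21 and MT-CO3 0.02 ± 0.21. In complex V, MT-ATP6, the membrane subunit of the proton channel, gave 0.13 ± 0.19, and MT-ATP8, whose frame overlaps it, gave 0.03 ± 0.22. Adjusted p over these 6 genes lay between 0.612 and 0.943, and each changed sign when some single library was left out. MT-CO1 stood at 3764, 5104 and 5801 CPM in siMK5 and 2828, 5497 and 4692 CPM in siCon, a spread within each group that was wider than the difference between them.

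**Figure D3:**
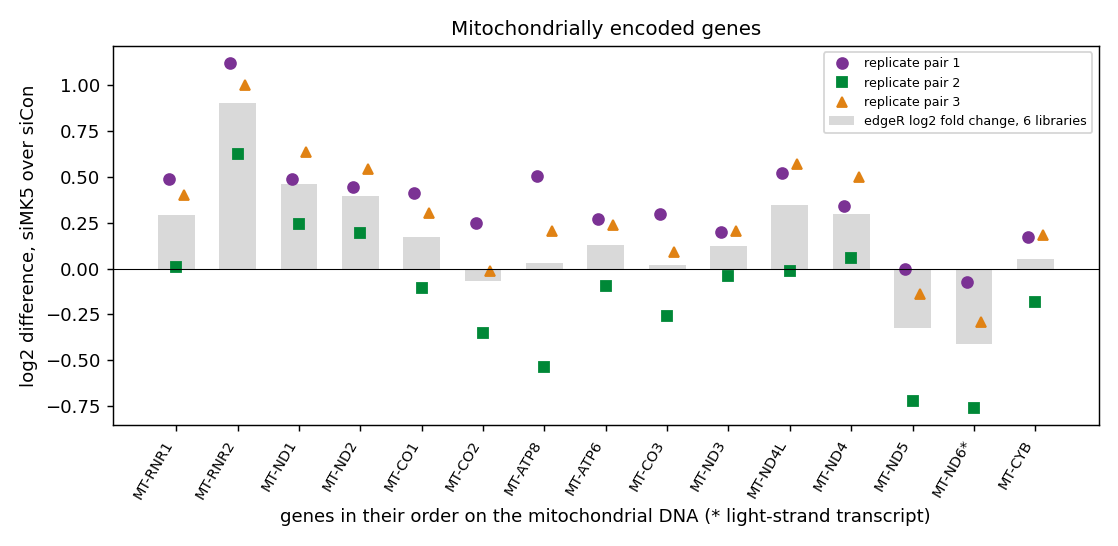
Log2 difference, siMK5 over siCon (y axis), of the 13 mitochondrial mRNAs and the 2 rRNAs in their order on the mitochondrial DNA (x axis; the asterisk marks the light-strand transcript). Points are replicate pairs 1, 2 and 3 on CPM with 0.5 added, and bars are edgeR's log2 fold change over 6 libraries, highest in MT-RNR2 (0.90) and lowest in MT-ND6 (−0.41).

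Because the share of all mitochondrial counts varied between libraries of 1 group, the make-up of these counts was also compared within each library. MT-ND5 took 6.17, 5.83 and 5.87% of the counts of the 13 mRNAs in siMK5, against 7.66, 8.63 and 7.69% in siCon. MT-ND6 took 1.31, 1.31 and 1.35% in siMK5, against 1.72, 1.99 and 1.96% in siCon. Both shares were lower in every siMK5 library, although the CPM levels of these genes overlapped. MT-ND4 took a higher share, 17.7, 18.2 and 18.2% in siMK5 and 17.4, 15.6 and 15.3% in siCon. MT-CO2 took a lower one, 12.4, 11.6 and 11.6% in siMK5 and 13.003, 13.3 and 13.9% in siCon, as did MT-CO3. The shares of the other 8 mRNAs overlapped between the groups, MT-ND1 among them. The shares sum to 100 in each library and so are not independent, and they were not tested.

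The ribosomal RNA genes of the mitochondrial DNA are not among the 102 genes and were measured beside them. MT-RNR2, the large ribosomal RNA, stood at 1564, 1581 and 1688 CPM in siMK5, against 718, 1025 and 842 CPM in siCon (0.90 ± 0.15, adjusted p = 0.00314). Per 100 counts of the 13 mRNAs, it had 11.5, 9.79 and 8.94 counts in siMK5, against 6.58, 5.68 and 5.30 in siCon. MT-RNR1, the small ribosomal RNA, gave 0.29 ± 0.12 and did not pass (adjusted p = 0.0869). The rRNAs lack long poly(A) tails, and the labels name the TruSeq V2 kit, whose usual protocol selects RNA by its poly(A) tail, without stating the selection used. The part of RNA selection in these values was not tested. Of 24 mitochondrial rRNA and tRNA genes in the table, 3 could be tested and 16 had no count, and MT-TP, a tRNA gene of the light strand, rose by 1.00 ± 0.14 (adjusted p = 0.00163). Over the 14 heavy-strand genes, rRNAs included, Spearman's rho between position and log2 fold change was −0.51, and it was −0.63, −0.50 and −0.53 in replicate pairs 1, 2 and 3. Over the 12 heavy-strand mRNAs it was −0.41. The genes share a transcript and the libraries, so these values are descriptions.

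**Figure D4:**
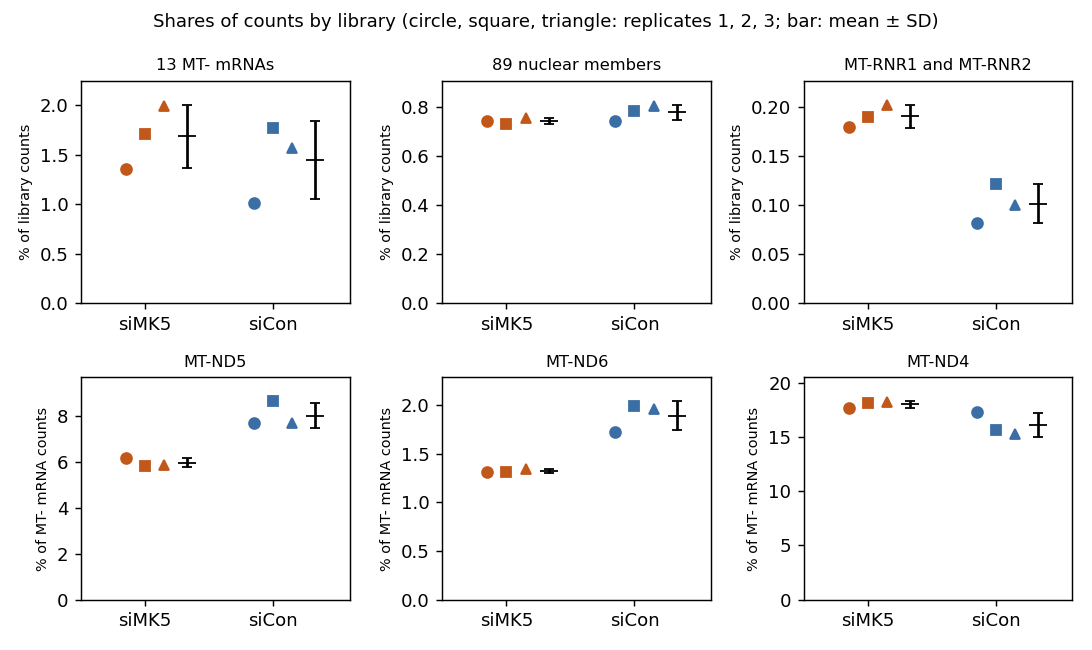
Shares of counts (y axes in percent, starting at 0) in the 3 siMK5 libraries (left) and the 3 siCon libraries (right), with mean ± SD. The upper panels give shares of all library counts, and the lower panels shares among the 13 mitochondrial mRNAs, where MT-ND5 and MT-ND6 are lower and MT-ND4 is higher in every siMK5 library.

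Genes that serve the chain without matching its symbols were read from lists of textbook genes. Of all 13431 genes tested, 46.2% passed, 22.5% rising and 23.7% falling. The lists are small, and no list was tested against these shares. Of 11 further subunits and electron carriers, none rose and 3 fell, with a median of 0.04. The 3 that fell, DHODH, SQOR and GPD2, are enzymes that feed electrons to ubiquinone, as does ETFDH, which did not pass (0.04 ± 0.13, adjusted p = 0.839). ETFA and ETFB, which supply ETFDH, were higher in every siMK5 library and did not pass (0.25 ± 0.11 and 0.48 ± 0.21, adjusted p = 0.105 and 0.0983). DHODH, of pyrimidine synthesis, stood at 3.10, 3.86 and 4.14 CPM in siMK5 and 12.6, 9.62 and 11.3 CPM in siCon (−1.60 ± 0.20, adjusted p = 0.00108). SQOR, of sulfide oxidation, gave −1.24 ± 0.14 (adjusted p = 0.000896), and GPD2, of the glycerol phosphate shuttle, gave −1.003 ± 0.19 (adjusted p = 0.00513). CYC1, the cytochrome subunit of complex III, and CYCS, cytochrome c, gave 0.04 ± 0.13 and 0.03 ± 0.14 and did not pass.

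Of 37 assembly factors with other names, 6 rose and 13 fell, with a median of −0.16. Of all genes tested, 22.5% rose and 23.7% fell. SDHAF1, which helps to insert iron-sulfur clusters into SDHB, stood at 12.5, 9.32 and 9.86 CPM in siMK5 and 3.14, 3.13 and 3.62 CPM in siCon (1.68 ± 0.19, adjusted p = 0.000840). TTC19, a complex III factor, stood at 136, 119 and 133 CPM in siMK5 and 54.1, 45.6 and 45.7 CPM in siCon (1.42 ± 0.12, adjusted p = 0.000331). Both rises exceeded any among the 102 genes. CMC2, a complex IV factor, and SDHAF4, which stabilises SDHA, fell, with log2 fold changes of −1.32 ± 0.12 and −1.27 ± 0.17 (adjusted p = 0.000443 and 0.00144).

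The counts in this paragraph stand beside 22.5% rising and 23.7% falling among all genes tested. Among 13 regulators of nuclear respiratory genes, 4 fell and 1 rose, with a median of −0.37. TFAM, which packages mitochondrial DNA and acts in its transcription, stood at 36.4, 35.6 and 36.3 CPM in siMK5, against 121, 75.2 and 71.5 CPM in siCon (−1.31 ± 0.21, adjusted p = 0.00305), with siCon replicate 1 the highest. ESRRA, the estrogen-related receptor alpha, stood at 65.2, 59.6 and 61.1 CPM in siMK5, against 21.2, 28.7 and 34.1 CPM in siCon (1.15 ± 0.18, adjusted p = 0.00259). The other falls were in GABPA, the DNA-binding part of GABP, PPRC1 and HCFC1. Of 21 genes of mitochondrial DNA replication and transcription, 9 fell and 3 rose, with a median of −0.49. TFAM is also on that list, whose rises were in TK2, the mitochondrial thymidine kinase (70.9, 74.1 and 76.1 CPM in siMK5 and 15.02, 17.5 and 18.3 CPM in siCon, 2.12 ± 0.12, adjusted p = 0.000201), POLRMT, the mitochondrial RNA polymerase (0.74 ± 0.11, adjusted p = 0.00259), and POLG, the DNA polymerase (0.64 ± 0.21, adjusted p = 0.0429). Of 20 genes of mitochondrial RNA processing and decay, 7 fell and 1 rose, with a median of −0.17. GRSF1, which binds RNA in mitochondrial RNA granules, and PNPT1, a subunit of the RNA-degrading machinery, fell, with log2 fold changes of −1.11 ± 0.18 and −1.03 ± 0.14 (adjusted p = 0.00287 and 0.00159).

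The next 2 lists have the same shares beside them, 22.5% of all genes tested rising and 23.7% falling. Of 13 genes of coenzyme Q synthesis, 4 rose and 2 fell, with a median of 0.38. PDSS2, a subunit of the enzyme that makes the isoprenoid tail, and COQ10B, a coenzyme Q-binding protein, rose by 1.03 ± 0.23 and 0.95 ± 0.13 (adjusted p = 0.00947 and 0.00177). Of 18 genes of the tricarboxylic acid cycle, 1 rose and 5 fell, with a median of −0.23. PDHX, a structural protein of the pyruvate dehydrogenase complex, rose by 0.84 ± 0.17 (adjusted p = 0.00675), and SUCLA2, a subunit of succinyl-CoA ligase, fell, with a log2 fold change of −0.72 ± 0.11 (adjusted p = 0.00221).

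Markers of cell type were also counted, beside the 46.2% of all genes tested that passed. Of those tested, 3 pigment epithelium and 3 mesenchymal markers did not pass. Of 10 retinal pigment epithelium markers, 5 could be tested and 2 fell, MITF and PMEL (−1.09 ± 0.14 and −1.89 ± 0.27). The 10 markers summed to between 58.6 and 66.8 CPM in siMK5, against 84.3 to 95.99 CPM in siCon. Of 4 epithelial markers, both that could be tested (KRT8 and KRT18) fell, and the 4 summed to between 387 and 573 CPM in siMK5, against 752 to 827 CPM in siCon. Of 5 mesenchymal markers, 4 could be tested and COL1A1 rose (1.83 ± 0.35). These 5 summed to between 6934 and 9033 CPM in siMK5 and between 7126 and 8149 CPM in siCon. The part of these changes in the values of the respiratory chain genes was not tested.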

How the data were processed

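Total RNA of LATS1/2-null RPE1 cells was made into 6 libraries, 3 of siMK5 and 3 of siCon, with the TruSeq V2 kit, per the labels' protocols. Per the submitters' processing notes, FastQC, Trimmomatic 0.36, TopHat2 2.1.1 and HTSeq 0.9.1 were used with the build GRCh37. Annotation release and strand setting: not given in the sources used here. The deposited table holds raw read counts per gene, although its name speaks of CPM. HTSeq can leave out reads that fit more than 1 gene, which lowers genes with overlapping neighbours or close copies.

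Genes were filtered with filterByExpr (count 10, total 15) of edgeR 4.0.16 under R 4.3.3, which left 13431. The fit scaled libraries by TMM and compared the groups without a block. P-values were adjusted by Benjamini-Hochberg with a threshold of 0.05. The standard error is the log2 fold change divided by the square root of F, in absolute value. The fit was tested on simulated counts. Lengths came from GENCODE, for mitochondrial genes only, and promoters from RefSeq on GRCh38.p14, matched by symbol. The alternatives were DESeq2 1.42.0, other size factors, no filter, a replicate block, libraries left out and other minimum counts.

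The genes, lists and named genes were chosen with earlier results of these data known. Named genes are all mitochondrial members, the SDH genes, up to 3 rises and 3 falls of largest size per class, isoform families and up to 2 genes per list. Further genes were named after their values were seen, to complete a class or list. Libraries with equal replicate numbers had correlated deviations from their group means (0.258, 0.206 and 0.248) and were therefore taken as pairs. This pairing was read from the data and not from the labels. It rests mainly on replicate 1, since siMK5 2 with siCon 3 (0.182) and siMK5 3 with siCon 2 (0.151) correlated nearly as much. Values of 1 gene are not reported here.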

Additional observations from a re-analysis of the deposited data

How the results depend on the processing

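The counts of 7 rises and 21 falls were 7 and 21 with DESeq2 size factors and with mitochondrial genes left out of the totals, 7 and 22 with the DESeq2 Wald test, and 7 and 20 with the replicate block. Over all genes, 6206 of 13431 passed in the main fit, 6167 with DESeq2 size factors and 6211 with mitochondrial genes left out. The Wald test passed 6873 of 15533 genes, and the block 6359 of 13431. Of the 28 calls, 24 were shared with the block. The block ended the calls of ATP5D, NDUFAF2, ATP5J2 and NDUFA12, brought in MT-ND2, ATP5O and NDUFA11, and changed no other call among the 102 genes. Without the low-count filter 2 members rose and 17 fell, where 6103 of all 22525 genes tested passed. At an adjusted p under 0.01, 1 rose and 12 fell, and the share of all genes at that threshold is not given here. With libraries left out, between 1 and 18 rose and between 12 and 41 fell, most without replicate 1 of both groups. The calls over all genes moved as well. In these fits the fewest genes passed without siMK5 replicate 2 (4167 of 13677). The most passed without replicate 1 of both groups (10372 of 13690). The nuclear median of −0.07 ranged from −0.11 to −0.04 with libraries left out. The mitochondrial median of 0.12 ranged from −0.05 without siCon replicate 1 to 0.23 without siCon replicate 2. Among the 102 genes, 21 changed sign with at least 1 library left out, 15 nuclear and 6 mitochondrial. All 21 lay within 0.19 of 0 with all libraries, and none had passed. Among these 21 were COX6A1 (−0.15 to 0.019), MT-ATP6 (−0.026 to 0.24), MT-ATP8 (−0.16 to 0.23), MT-CO1 (−0.054 to 0.36), MT-CO2 (−0.26 to 0.067), MT-CO3 (−0.17 to 0.15) and MT-CYB (−0.083 to 0.15). ATP5B, also among them, was at 0.0099 without replicate 1 of both groups. The cause was not tested. ATP5S, the least counted member with a mean of 103 counts, had the largest standard error (0.39).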

Other observations

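Genes below the minimum of 50 counts held 2 positive log2 fold changes larger than any among the 102 genes. NDUFA4L2, a relative of NDUFA4 known as a target of hypoxia-inducible factor, stood at 1.35, 1.88 and 1.68 CPM in siMK5, against 0.421, 0.295 and 0.329 CPM in siCon (2.22 ± 0.29). NDUFA13, a subunit of complex I, stood at 0.949, 1.25 and 1.11 CPM in siMK5, against 0.153, 0.442 and 0.293 CPM in siCon (1.88 ± 0.39). Their siCon counts were only 11, 8 and 9 for NDUFA4L2 and 4, 12 and 8 for NDUFA13. Both genes passed the low-count filter through the siMK5 libraries, where they were high. Their p-values are therefore left out. NDUFV2, a core subunit of complex I, had a mean of 8.33 counts and UQCR11, a subunit of complex III, had 17.2, far below other subunits of their complexes. How reads were assigned to these genes was not tested.

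Of the 153 genes with pseudogene-like symbols, none reached a mean of 50 counts. COX5BP2, named as a pseudogene of COX5B, had 41, 62 and 71 counts in siMK5, against 1, 0 and 1 counts in siCon. It passed the low-count filter through the siMK5 libraries alone, so its p-value is left out. COX5B itself stood at 108, 77.5 and 79.9 CPM in siMK5 and 96.7, 98.6 and 97.2 CPM in siCon and did not pass (−0.14 ± 0.15). The gene was singled out after its values were seen.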
